A study of Rattus norvegicus with 4 samples.

Results

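MicroRNAs (miRNAs) of rat primary chondrocytes, the cells that build and keep up cartilage matrix, were compared between a late and an early time of exposure to interleukin-1β (IL-1β), an inflammatory cytokine of arthritic joints. The comparison used the array of cells collected 24 h after 10 ng/ml IL-1β was added and the array of cells collected after 6 h at the same dose, 2 of the 4 arrays of the series. The other arrays, untreated cells at 0 h and cells after 12 h of IL-1β, entered neither the normalization nor the calls and are given only for context. All cells were primary rat chondrocytes grown at 200000 per ml. The labels do not name the joint, the strain, the age or the number of animals. Each time was 1 sample on 1 array, so time in IL-1β, time in culture, sample and array cannot be told apart, and no test across conditions or p-value was possible. Every probe had 5 spots on each array, and each ± on a change is a standard error from those spots (each ± on a spot intensity is their SD). It measures how repeat spots vary and nothing of how cultures or animals vary. The members were all 679 miRNA probes of the array, named here without the rat prefix, and a star marks the opposite arm of a hairpin in the older naming used on the array.

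A miRNA is cut from one arm of a hairpin transcript and guides silencing proteins to messenger RNAs that pair with its seed, bases 2 to 8. miRNAs with a common seed can therefore act on overlapping sets of transcripts. In cartilage, miR-140 is made at a high level and restrains matrix-degrading enzymes, and inflammatory signalling through NF-κB induces miR-146a, which dampens its upstream adaptors. Mature miRNAs are often long-lived, so a level measured hours after a stimulus reflects both synthesis and decay.

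The mature sequences of the miRNAs on which the results turn are shown 5′ to 3′ with the seed in capitals. Of the 679 target sequences on the array, 621 were identical to a RefSeq mature miRNA of the GRCr8 build, as were 26 of the 28 miRNAs that changed. The first set shows miRNAs of a common seed, of which miR-20a and miR-106b rose and the others were positive without passing.
miR-20a: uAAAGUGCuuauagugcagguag
miR-106b: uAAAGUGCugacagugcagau
miR-17-5p: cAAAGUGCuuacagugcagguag
miR-20b-5p: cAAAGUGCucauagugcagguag
miR-93: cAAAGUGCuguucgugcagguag

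The next set shows closely related probes that moved together or apart. The sequences of miR-101a and miR-101b lie 1 edit apart, a distance at which an array probe may bind its neighbour, and miR-29b lies 4 edits from miR-29a.
miR-101a: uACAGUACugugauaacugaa
miR-101b: uACAGUACugugauagcugaa
miR-29b: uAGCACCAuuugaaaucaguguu
miR-29a: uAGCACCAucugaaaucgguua
miR-29c: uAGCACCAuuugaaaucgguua

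The third set holds let-7a as the reference of its family, the let-7 relatives that fell, and miR-352, which fell as well and lies 2 edits from let-7d but is shifted in its seed. The miR-352 sequence is that of the array file, since it had no identical RefSeq entry.
let-7a: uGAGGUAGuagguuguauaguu
let-7e: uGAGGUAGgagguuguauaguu
miR-98: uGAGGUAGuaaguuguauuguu
let-7d: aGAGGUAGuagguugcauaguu
miR-352: aGAGUAGUagguugcauagua

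The last set shows the largest rise (miR-290), another strong rise (miR-494), the 2 largest falls, and the inflammation-induced miR-146a and the cartilage miR-140. The miR-328a* sequence, likewise without an identical RefSeq entry, is from the array file.
miR-290: uCUCAAACuaugggggca
miR-494: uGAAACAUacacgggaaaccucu
miR-328a*: gGGGGGCAggaggggcuca
miR-329: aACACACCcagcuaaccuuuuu
miR-146a: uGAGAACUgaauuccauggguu
miR-140: cAGUGGUUuuacccuaugguag

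A miRNA was detected on an array where at least 3 of its 5 spots exceeded the 95th percentile of the 261 empty spots, and it was compared where it was detected on at least 1 of the 2 arrays. Of the 679, 357 were compared, 208 of them detected on both arrays, and 322 were detected on neither. At 6 h 355 were detected and at 24 h 210, and the limit was 54.2 units at 6 h and 86.2 units at 24 h. The 147 miRNAs seen at 6 h only were dim, with a median of 61.1 units at 6 h and 56.7 units at 24 h, and 7 of them exceeded the 24 h limit in units at 6 h. The median log2 change of these 147 was -0.09, and the part of the unequal background in their number was not tested. Summed over all miRNA spots, the unnormalised intensity was 3.57e+06 units at 6 h and 4.19e+06 units at 24 h, so that a miRNA can read more units at 24 h and still have a normalised change below 0. Changes are log2 differences, 24 h minus 6 h, of quantile-normalised levels, and a miRNA rose or fell where the change reached 1 on the log2 scale, that is 2-fold, and also exceeded the spot standard error 2 times over.

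By that rule 28 miRNAs (7.84% of those compared) changed between 6 h and 24 h of IL-1β, 15 higher (4.2%) and 13 lower (3.64%) at 24 h. Higher were miR-146a, both miR-101 forms, miR-29b, the cartilage miR-140, miR-143, and the miR-17-92 relatives miR-19b, miR-20a and miR-106b. Lower were let-7e, its relative miR-98, miR-10b, miR-181b, miR-365 and, by the widest margins, miR-328a* and miR-329. In all 28 the 5 spot positions moved in one direction, as the plot of spot-level changes shows. The call rule uses these same spots, so this is no separate support for the calls. Most miRNAs moved little: of the 208 detected on both arrays, 137 (65.9%) stayed within 1.5-fold, the median change was 0.02 and the 10th and 90th percentiles were -0.70 and 0.86. Levels on the arrays correlated at r = 0.957 across these 208 miRNAs, which share 2 arrays and are not independent replicates. Just inside the 2-fold line were miR-143 (1.01) and miR-352 (-1.04), and just outside it were miR-196c* (-0.98), miR-3554 (0.98) and miR-31 (0.96), chosen for mention by their place at the threshold.

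**Figure D1:**
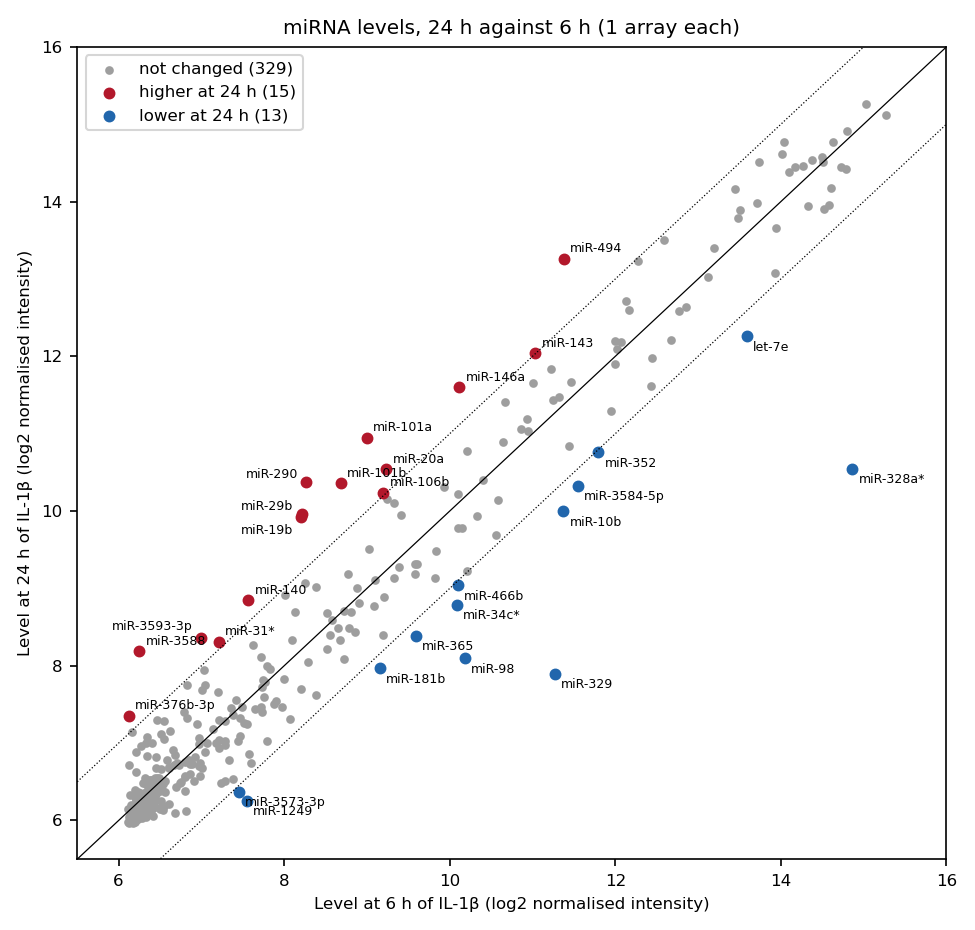
Normalised level at 24 h (vertical axis, log2) against that at 6 h (horizontal axis, log2) for the 357 miRNAs compared, 1 array each, with 15 higher miRNAs in red, 13 lower in blue and 329 not changed in grey. The solid line marks equal levels and the dotted lines a 2-fold difference, and miR-328a* and miR-329 lie farthest below.

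Inflammation-induced miRNAs came first among the roles examined. miR-146a read 916 ± 132 units at 6 h and 3288 ± 300 units at 24 h, beside 453 units at 0 h and 2176 units at 12 h. The normalised rise was 2.79-fold (log2 1.48 ± 0.11). In unnormalised units its spots at 24 h all exceeded those at 6 h. The call used these same spots, and the share of all miRNAs without overlap was not counted, so this adds no support. Of 11 list members on the array 8 were compared, all of them detected on both arrays. Of these 8, miR-146a was the one that passed, beside 4.2% higher over all 357 and 14 higher among the 208 detected on both arrays. The list median was 0.48, beside 0.02 among the 208 detected on both arrays and -0.07 over all 357. The stress-responsive miR-31 (0.96 ± 0.08), miR-221 (0.77 ± 0.08) and miR-222 (0.72 ± 0.08) were positive below the rule. miR-21, already at 30067 units at 6 h and 43171 units at 24 h, had a change of 0.24. miR-132 (-0.40 ± 0.08), miR-146b (-0.31 ± 0.14) and miR-212 (-0.10 ± 0.11) were slightly negative on this scale, and all 8 were positive without normalization. miR-146b differs from miR-146a by 3 edits, and the probes did not move together. With 5S RNA as the scale, 4 members were positive and 4 negative.

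The cartilage miRNA miR-140 read 149 ± 15.5 units at 6 h and 515 ± 55.8 units at 24 h. This was a rise of 2.43-fold (1.28 ± 0.10), which fell to 0.99 with 5S scaling and so just missed the rule there. It read 193 units at 0 h and 363 units at 12 h. Units include background, and the empty-spot median was 123 at 0 h and 46.2 at 6 h. After correction, on a log2 scale common to the 4 arrays, miR-140 was at 7.54, 7.72, 8.18 and 8.92 at 0, 6, 12 and 24 h. Its hairpin partner miR-140* read 8449 and 11659 units at 6 h and 24 h and had a change of 0.21 ± 0.07, so the arms of this hairpin shifted by unequal amounts. The other cartilage-enriched pair, miR-455 (0.51 ± 0.14) and miR-455* (0.25 ± 0.04), was positive without passing. All 4 cartilage miRNAs were detected on both arrays. Of the 4, 1 was negative with median scaling and 2 with 5S scaling.

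The miR-101 forms, known to restrain the histone methyltransferase Ezh2, rose by nearly equal amounts. miR-101a read 419 ± 29.1 units at 6 h and 2060 ± 154 units at 24 h, a rise of 3.865-fold (1.95 ± 0.06). miR-101b read 331 ± 40.2 and 1460 ± 81.7 units, a rise of 3.21-fold (1.68 ± 0.09). They are encoded on different chromosomes, miR-101a at chr5:121081691-121081711 (minus strand) and miR-101b at chr1:236273982-236274002 (plus strand) of GRCr8. Cross-binding between their probes was not tested.

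In the miR-29 family, whose targets include collagen and other matrix transcripts, the forms moved unequally. miR-29b read 233 ± 12.4 units at 6 h and 1180 ± 198 units at 24 h, a rise of 3.35-fold (1.74 ± 0.13). miR-29a (14687 and 26307 units, 0.61 ± 0.07) and miR-29c (1928 and 3384 units, 0.65 ± 0.25) were positive and under the rule. All 3 were positive under every scaling tried. miR-29b and miR-29a are neighbours on chromosome 4, and miR-29b has another locus beside miR-29c on chromosome 13, so the array cannot say from which locus it came.

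In the miR-17-92 cluster and its relatives, known from cell proliferation, 3 of the 9 miRNAs compared rose and none fell. Over all compared 4.2% were higher, and 14 of the 208 detected on both arrays, as all 9 were. Of the 9, 8 were positive, with a median of 0.77, beside 109 positive (52.4%) and a median of 0.02 among the 208 detected on both arrays. miR-19b went from 237 ± 50.2 to 1157 ± 99.7 units and rose 3.27-fold (1.71 ± 0.17). miR-20a went from 502 ± 31.5 to 1571 ± 64.8 units and rose 2.49-fold (1.32 ± 0.06). miR-106b, from the related cluster on chromosome 12, went from 488 ± 46.5 to 1366 ± 104 units and rose 2.06-fold (1.04 ± 0.10). In unnormalised units, which were higher in sum at 24 h, the spots of these 3 probes did not overlap between the arrays. They were called from the same spots, and the share without overlap over all miRNAs was not counted. The others shared the sign with 1 exception: miR-20b-5p was at 0.92, miR-17-5p at 0.77, miR-18a at 0.60, miR-93 at 0.54 and miR-25 at 0.09, while miR-92a was at -0.32. In the cluster at chr15:98587861-98588622 the 5 members detected on both arrays thus ran from -0.32 to 1.71. Of these, miR-17-5p, miR-19b and miR-92a have the same sequence at loci on the X chromosome, so the array cannot say from which locus they came. The calls were sensitive to scaling, with 6 of 9 higher without normalization and 1 of 9 with 5S scaling, and 7 were positive with 5S scaling, median scaling and loess.

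Further miRNAs that rose have other or less known roles. miR-290, whose cluster marks mouse embryonic stem cells, showed the largest rise, from 246 ± 53.0 to 1471 ± 194 units (4.32-fold, 2.11 ± 0.20). It was the one of 8 cluster members detected at 24 h. miR-494, from the imprinted Dlk1-Dio3 locus, went from 2691 ± 916 to 10642 ± 756 units (3.69-fold, 1.88 ± 0.24). Its spots at 6 h were uneven, between 1516 and 3752 units, and those at 24 h lay between 9967 and 11625 units. miR-143, abundant in contractile and connective tissue cells, went from 1966 ± 147 to 4216 ± 297 units (2.01-fold, 1.01 ± 0.07), and its call ended in 7 of 19 other settings, down to 0.42 with 5S scaling. Its cluster partner, miR-145, had a change of -0.08 ± 0.05.

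Of the dimmer miRNAs that rose, miR-3588 and miR-376b-3p were close to the detection limit at 6 h. miR-31*, the partner of miR-31, went from 114 ± 13.9 to 352 ± 16.5 units (2.14-fold, 1.10 ± 0.07), with the call ended under no background correction (0.95), 5S scaling (0.81) and GC correction (0.96). miR-3593-3p went from 98.6 ± 24.1 to 368 ± 50.9 units (2.58-fold, 1.37 ± 0.17). miR-3588 went from 58.7 ± 10.0 to 335 ± 125 units (3.83-fold, 1.94 ± 0.22). All of these were detected on both arrays, miR-3588 only narrowly at 6 h. miR-376b-3p, of the Dlk1-Dio3 locus, was detected at 24 h (166 units) and not at 6 h (52.6 units). It was 2.35-fold higher against its own undetected 6 h level, with no call under no background correction, median scaling or 5S scaling.

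**Figure D2:**
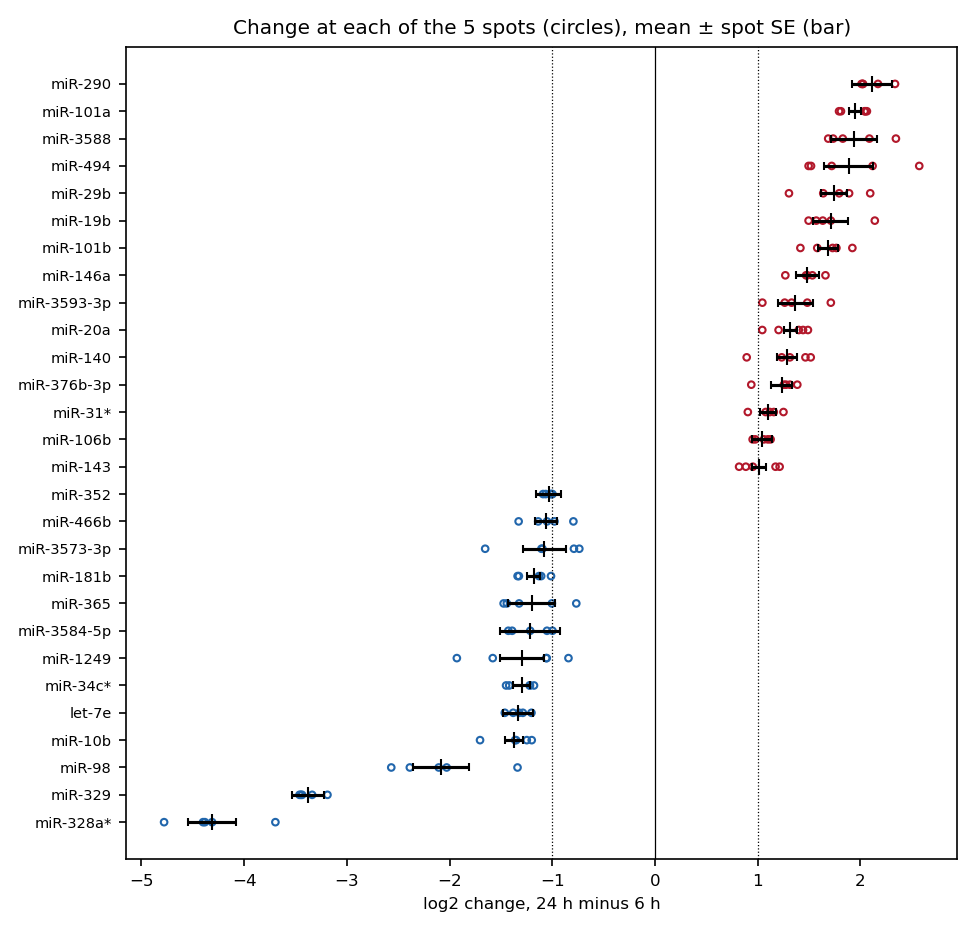
log2 change from 6 h to 24 h (horizontal axis) at each of the 5 spot positions (circles) of the 28 miRNAs that changed (vertical axis), with the mean ± spot standard error in black. No circle crosses 0, and miR-98, miR-1249 and miR-494 show the widest scatter beside miR-328a*.

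miR-328a*, the partner arm of miR-328a, fell farthest. It read 27566 ± 5326 units at 6 h and 1657 ± 361 units at 24 h, a fall of 19.9-fold (-4.31 ± 0.23). The signal had been 13432 units at 0 h and 44770 units at 12 h, so the mean at 24 h was the lowest of the 4 arrays. Its sequence is 78.9% G and C, the highest of the 28. miR-329, of the Dlk1-Dio3 locus, behaved alike, at 2310 ± 423 units at 6 h and 260 ± 45.0 units at 24 h, a fall of 10.4-fold (-3.38 ± 0.16). It had read 877 units at 0 h and 4081 units at 12 h, and its spots at 24 h (206 to 313 units) all lay below those at 6 h (1889 to 2836 units). The call used these same spots, so their separation is no separate support. Both falls exceeded 8-fold in every alternative setting.

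The let-7 family, which keeps differentiated cells from re-expressing growth and fetal genes, had 2 of its 8 members fall and none rise. Over all compared 3.64% were lower, and 11 of the 208 detected on both arrays, as all 8 were. Of the 8, 7 were negative, with a median of -0.52, beside 99 negative (47.6%) among the 208 detected on both arrays. let-7e went from 11341 ± 1939 to 5034 ± 746 units (2.52-fold lower, -1.33 ± 0.15). miR-98 went from 1074 ± 423 to 303 ± 49.1 units (4.25-fold lower, -2.09 ± 0.27). let-7d and let-7f were at -0.62 each, let-7b at -0.43, let-7a at -0.36 and let-7c at -0.28, whereas let-7i was at 0.19. The count of 7 negative members was the same under each scaling except with 5S RNA, where all 8 were negative and 4 fell. As a share of the signal of all miRNA probes above the empty spots, the 8 probes summed to 22.2% at 6 h and 16.5% at 24 h.

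miR-352, with a let-7-like sequence, went from 3511 ± 555 to 1821 ± 252 units (2.05-fold lower, -1.04 ± 0.12). Its call ended without normalization (-0.94) and after centring (-0.97). let-7e lies 1 edit from the stronger let-7a. miR-98 and miR-352 lie within 4 edits of a miRNA probe at least 4 times stronger, as do miR-181b and, among the rises, miR-29b. Such probes can read part of their neighbour. Across the 16 probes of this kind detected on both arrays, the median change was 0.01, beside 0.02 for the other 192. For 8 mismatched calibration probes chosen for signal above the empty spots on all 4 arrays, the signal was compared with the matched partner. Their median was 8.41% of the partner at 6 h and 11.4% at 24 h, with 5 of the 8 lower at 24 h. Some other mismatched probes read far less. At 6 h a2-PUC2MM-20B had 60.3 units above the empty median, beside 42758 for a2-PUC2PM-20B. The part of mismatch binding in these changes was not tested.

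miR-10b and miR-181b also fell. miR-10b, encoded in a Hox gene cluster, went from 2430 ± 242 to 1203 ± 98.2 units (2.59-fold lower, -1.37 ± 0.09). Of the 9 members of the miR-10, miR-99/100 and miR-125 group, 1 fell and 8 were negative, with a median of -0.35. Over all 357 compared 3.64% fell, and of the 208 detected on both arrays 11 fell and 47.6% were negative. miR-125a-5p (-0.84) and miR-196a (-0.80) came next. Without normalization 5 of the 9 were negative, with miR-10b still past the rule. miR-181b, of a family known from immune-cell development, went from 474 ± 32.2 to 275 ± 21.8 units (2.27-fold lower, -1.18 ± 0.06). All 4 miR-181 members were negative, at a median of -0.57, beside the same 47.6%. Without normalization no member fell, the call of miR-181b ended at -0.76 and 1 of the 4 was positive.

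miR-365, known in chicken chondrocytes as a miRNA that responds to mechanical load, went from 620 ± 150 to 376 ± 62.9 units (2.30-fold lower, -1.20 ± 0.23). Its lowest spot at 6 h (364 units) lay below its highest at 24 h (445 units), so in units its spots overlapped. It had read 220 units at 0 h and 1563 units at 12 h, and its call ended after loess (-0.97), without normalization (-0.68) and after centring (-0.71). miR-34c*, the partner of the p53-responsive miR-34c, went from 878 units (spots 756 to 1125) to 494 units (spots 448 to 539) (2.46-fold lower, -1.30 ± 0.08), and its call ended without normalization (-0.80) and after centring (-0.84). miR-466b, from hairpins that in mouse lie in an intron of Sfmbt2, went from 897 ± 140 to 588 ± 65.9 units (2.08-fold lower, -1.06 ± 0.11), with the call ended in 6 of 19 settings. Of the 19 settings, miR-34c* thus kept its call in 17, miR-365 in 16 and miR-466b in 13.

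The remaining falls were those of miR-3584-5p, miR-1249 and miR-3573-3p, whose roles are not described here. miR-3584-5p, 72.2% G and C, went from 3059 ± 1206 to 1457 ± 275 units (2.325-fold lower, -1.22 ± 0.29). Its spots lay between 1884 and 4562 units at 6 h and between 1183 and 1831 units at 24 h, close together but without overlap. The call used these same spots, so this is no separate support. It ended without normalization and with the authors' deposited table (-0.79). miR-1249 and miR-3573-3p were detected at 6 h (149 and 140 units) and not at 24 h (60.03 and 66.97 units). As a bound against the lowest detected level at 24 h, miR-1249 was lower by 2.00-fold. For miR-3573-3p the bound was 1.87-fold, so that it did not reach 2-fold as a bound. These bounds are approximate. The call of miR-1249 ended with the authors' deposited table (-0.97), and that of miR-3573-3p in 6 of 18 settings. Across the 357 miRNAs compared, change and GC content correlated at r = -0.19. The median GC content was 42.9% in the 15 that rose, 45.5% in the 13 that fell and 52.2% in the 329 others.

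Seeds gave a compact view of these families. Of the miRNAs detected on both arrays, 8 groups held at least 3 with an identical seed, and the plot of seed groups orders them by median change. At the upper end stood the seed of miR-17-5p, miR-20a, miR-20b-5p, miR-93 and miR-106b, with a median of 0.92 over 5 probes, all positive (0.54 to 1.32) under every scaling. At the lower end stood miR-181 (-0.57 over 4) and let-7 (-0.52 over 8). The miR-30 group (0.20 over 5), the miR-15/16 group (0.15 over 5), miR-25/92 (0.09 over 3) and miR-99/100 (-0.22 over 3) had no member that passed. The members of a group have similar sequences and share 2 arrays, so they are not independent.

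**Figure D3:**
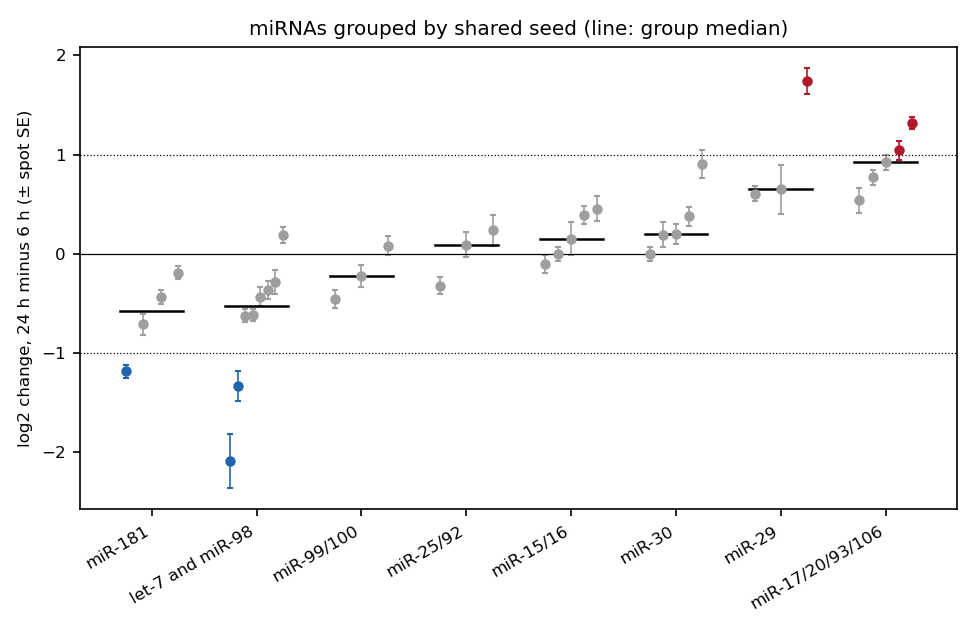
log2 change from 6 h to 24 h ± spot standard error (vertical axis) for miRNAs detected on both arrays, grouped by a common seed (horizontal axis), with red for higher, blue for lower and grey for not changed. Black lines are group medians, from -0.57 for miR-181 to 0.92 for the group of miR-17-5p.

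The arms of a hairpin often moved unequally. Both arms were detected on both arrays for 36 hairpin pairings, some of which share a probe, and 21 of them had changes of the same sign (r = 0.21 across pairings, as a description). In 9 pairings 1 arm passed the rule, and in none did both. In miR-34c the unstarred arm was at 0.68 ± 0.08 and the starred arm at -1.30 ± 0.08. In miR-365 the order was the reverse, with -1.20 ± 0.23 for miR-365 and 0.64 ± 0.11 for miR-365*. miR-31 and miR-31* moved by like amounts (0.96 and 1.10), and miR-146a* was at 0.67 ± 0.10 beside 1.48 for miR-146a. For miR-106b* (-0.07 ± 0.13) and miR-10b* (-0.10 ± 0.10) the partner's change was not seen at their low signals of 88.1 to 126 units.

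**Figure D4:**
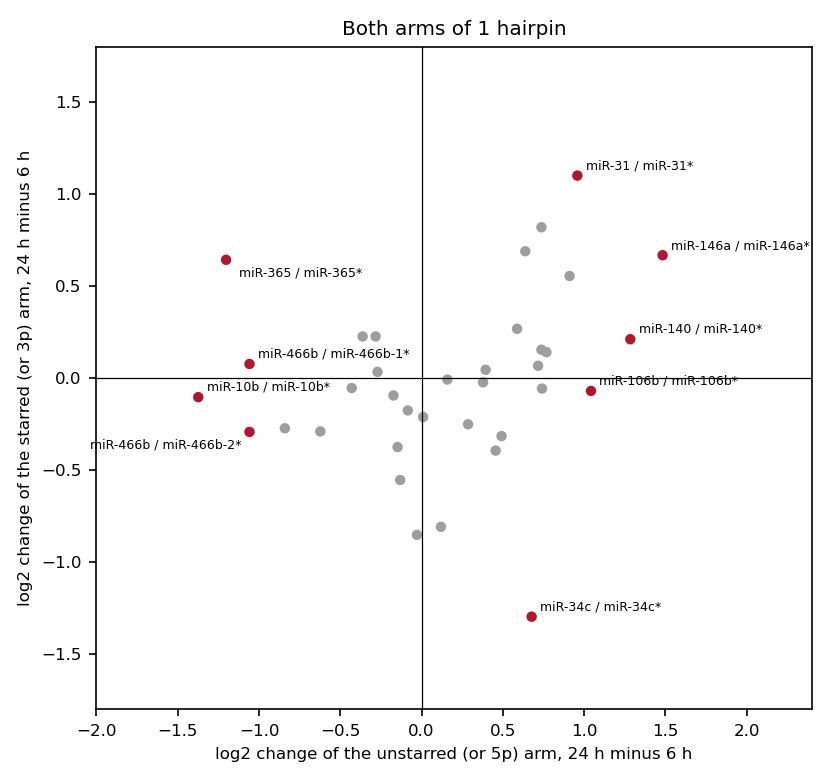
log2 change from 6 h to 24 h of the unstarred or 5p arm (horizontal axis) and of the starred or 3p arm (vertical axis) for 36 hairpin pairings detected on both arrays, red where 1 arm passed the rule. miR-34c and miR-365 lie in opposite quadrants.

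Neighbouring miRNA genes gave a mixed picture too. Taking RefSeq loci within 10 kb on a strand as a cluster, 17 clusters held at least 3 probes detected on both arrays. A probe with loci in several clusters counts in each, as miR-24 does. On chromosome 1 (chr1:67350070-67350748), let-7e fell, while miR-125a-5p (-0.84) and miR-99b (0.08) did not pass, and the cluster median was -0.56. The miR-221/222 cluster on the X chromosome (0.43 over 4 probes) and the miR-23a cluster on chromosome 19 (0.50 over 4) were positive throughout without a call. At the Dlk1-Dio3 locus on chromosome 6, 26 of 44 listed probes were compared, with a median of 0.10. Of the 26, miR-494 and miR-376b-3p were higher (4.2% over all 357 compared) and miR-329 lower (3.64% over all). miR-494 and miR-329 lie close together there (chr6:134550163-134550185 and chr6:134547973-134547994) and moved in opposite directions.

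The other arrays place the changes in time, on a log2 scale made common to the 4 arrays. Of the 15 miRNAs higher at 24 h, 14 had a 12 h level nearer to that at 6 h, as did 10 of the 13 lower ones, beside 69.7% of the 208 detected on both arrays. miR-494 was the exception among the higher ones, at 10.86, 11.46, 13.05 and 13.20 at 0, 6, 12 and 24 h. miR-146a was higher at each later time, at 9.11, 10.10, 10.55 and 11.71. miR-290 followed a dip, at 10.63, 8.38, 7.52 and 10.39, as did miR-3593-3p at 8.59, 7.19, 6.86 and 8.47, so that both stood at 24 h near their untreated level. miR-98 peaked at 12 h, at 9.42, 10.21, 12.13 and 8.23, as did miR-365 at 7.79, 9.55, 10.19 and 8.49. The same 8 mismatched calibration probes, chosen for signal above the empty spots, had a median of 26.9% of the matched signal at 12 h. At 0 h it was 6.80%, and the part of mismatch binding in the 12 h levels was not tested. miR-3573-3p stood at 8.99 at 0 h, 7.62 at 6 h and 6.71 at 12 h and was not detected at 24 h, and miR-1249 was detected at 0 h and 6 h (9.58 and 7.71) but not at the later times.

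**Figure D5:**
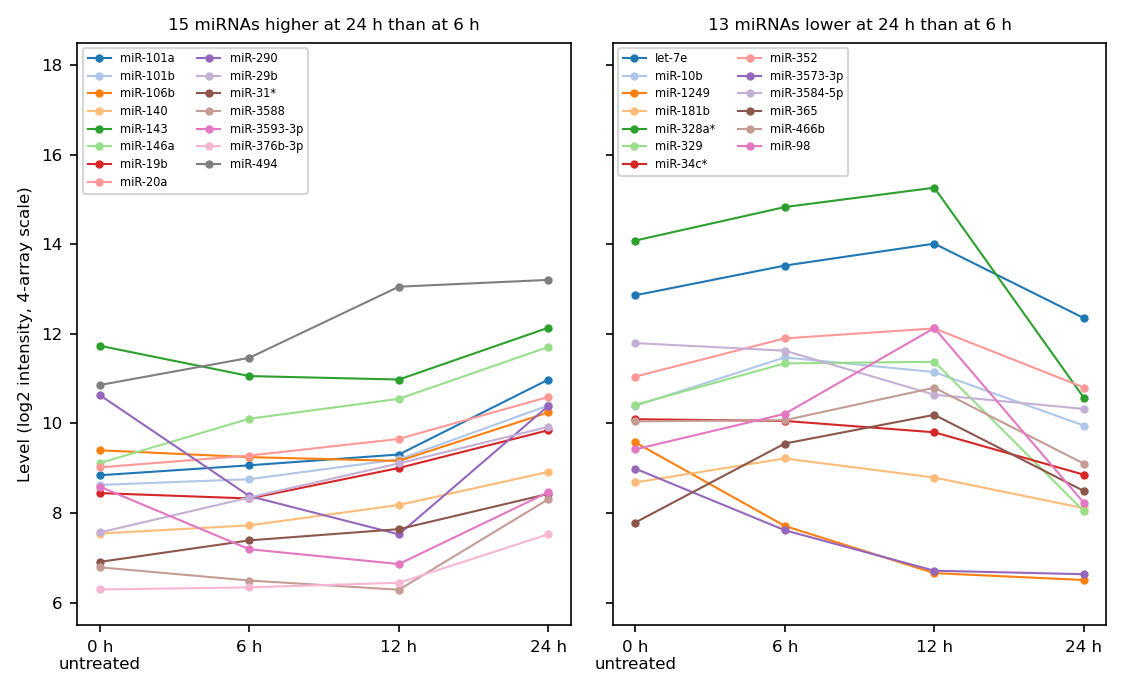
Levels (vertical axis, log2 intensity on a scale common to the 4 arrays) at 0 h untreated and after 6, 12 and 24 h of IL-1β (horizontal axis) for the 15 miRNAs higher (left) and the 13 lower (right) at 24 h than at 6 h, 1 array per point. On the left all but miR-494 lie nearer at 12 h to their 6 h level, and miR-328a* and miR-329 on the right drop after 12 h.

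The strongest probes and the markers of other cells set the frame. The 8 probes with the highest mean signal of the 2 arrays were miR-125b-5p, miR-21, miR-23b, miR-23a, let-7a, let-7c, miR-466b-1* and miR-466c*, and their changes ran from -0.36 to 0.24; probe signals do not rank abundance. The miR-23, miR-27 and miR-24 group was positive in all 5 members (median 0.27, miR-24 highest at 0.74), but in 3 of 5 with median scaling and 1 of 5 with 5S scaling. miR-34a (0.92) and miR-34c (0.68), both p53-responsive, were positive without passing. In the list of miR-148, miR-152 and miR-130 relatives the median was 0.43, in miR-26 it was -0.24 and in the miR-15/16 list 0.08. Of other cell types, 1 of 6 blood, 1 of 7 epithelial, 1 of 2 endothelial, 3 of 6 muscle, 2 of 5 neural and 2 of 3 liver markers were detected at 6 h, and 0, 0, 1, 1, 1 and 2 at 24 h. Each of these lists summed to at most 0.138% of the signal above the empty spots on either array. The endothelial marker miR-126 read 86.6 and 228 units (0.92 ± 0.09), under the rule, and the muscle marker miR-206 read 937 and 1042 units (-0.37 ± 0.09). Their part in the changes was not tested.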

How the data were processed

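Per the labels' protocols, total RNA was extracted with the miRNeasy kit, and small RNAs were separated on a filter, given a poly(A) tail and tagged for dye staining (Cy5). The deposited array files give the mean intensity of each spot; the scanner and image software are not given in the sources used here. The authors' deposited value table gives 1 intensity per miRNA and array on a linear scale that was processed in a way not given there. It served as an alternative. Spot intensities were corrected with normexp (offset 50) in limma 3.58.1 (R 4.3.3), quantile-normalised over the miRNA spots of the 6 h and 24 h arrays, log2-transformed and summarised as the mean of 5 spots. Further steps used Python 3.11.15, numpy 2.4.6, pandas 2.3.3 and matplotlib 3.10.9. Folds with an undetected side are bounds against the lowest detected level of that array (6.11 at 6 h and 6.55 at 24 h, log2) or the miRNA's own if higher. An undetected miRNA can read above that level, as miR-150 did at 24 h (6.58), so these bounds are approximate. The call rule was checked on data simulated from the 6 h array, with known folds and spot noise alone. That simulation held no difference in sample, background or scaling between arrays, so it cannot speak to false calls from these. 1 array per group limits the precision. Named are all miRNAs that changed, the 8 strongest probes and list members; others were chosen after their values were seen. Members, lists and rules were chosen with earlier results of these data known. The 19 alternatives changed background, scaling, detection, spot summary, fold rule, GC content or related probes.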

Additional observations from a re-analysis of the deposited data

Results flagged for a closer look

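Control spots that enter no miRNA comparison carried signal that differed between the arrays. The mismatched calibration probe PUC2MM, at 16 spots, read 74.3% of its matched partner PUC2PM at 6 h and 51.3% at 24 h, after the empty-spot median was taken off. It was an extreme case, since the other probes with PUC2MM in their name read far below their matched partners on both arrays. Among the 5S RNA probes, b2 read 3.09 times as much at 24 h as at 6 h.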

How the results depend on the processing

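Without replicate arrays, spot error is the one error measured, and signals near the empty spots have no reliable order. The counts of 15 higher and 13 lower stayed within 1.5 times under 14 of 19 alternatives. They became 30 and 6 without normalization, 28 and 7 after centring those changes, 9 and 39 when scaled to 5S RNA, 26 and 20 with an offset of 16, and 46 and 34 by a 1.5-fold rule. The median change of -0.07 became -0.64 with 5S scaling, -0.37 with median scaling and 0.16 once undetected miRNAs were raised to the dimmest detected signal. The 6 5S probes themselves changed by 0.36 to 1.61 (log2, unnormalised). Of the miRNAs called, 9 higher and 5 lower kept their call in every alternative that they entered (miR-19b, miR-29b, miR-101a, miR-101b, miR-146a, miR-290, miR-494, miR-3588 and miR-3593-3p; let-7e, miR-10b, miR-98, miR-328a* and miR-329), and no called change turned its sign. Over the called miRNAs and alternatives, 483 values kept the call and 42 lost it; the cause was not tested. No paired analysis was possible because each group has 1 array and the labels give no replicate numbers.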
